A study of Homo sapiens with 19 samples.

Results

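SNORD68 is a box C/D small nucleolar RNA (snoRNA) whose name stands beside 2 of the 120 rRNA sites in the deposited RiboMethSeq table, 18S-428 and 28S-2388. These 2 sites are described here, chosen by splitting the annotation of each site and keeping those with SNORD68. SNORD68 was singled out with the score of its sites in the FBL knockdown libraries already known, so every comparison of FBL KD with control KD or of re-expressed FBL with empty vector or control KD is given as a description, with no test; tests are given for FBLTri against FBLQua, for the vector in control KD and for SNORD127. RefSeq places the SNORD68 gene at chr16:89561430-89561501 of GRCh38.p14, where it is annotated as a snoRNA of 72 nucleotides inside the span of RPL13, a gene for a protein of the large ribosomal subunit. The numbers of the sites are positions in mature rRNA, a repeated gene, so they carry no genome coordinates.

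A box C/D snoRNA pairs with rRNA through a guide stretch next to its box D or D' motif, and the paired nucleotide at a fixed distance from that box receives a methyl group on its ribose. The methyl group is added by fibrillarin (FBL), the enzyme of the snoRNA particle, which also holds NOP56, NOP58 and SNU13. A snoRNA with 2 guide stretches can direct methylation of separate nucleotides. SNORD68 is listed for a uridine in 18S rRNA of the small subunit and an adenosine in 28S rRNA of the large subunit. Both are thus assigned to the same guide and the same enzyme. SNORD68 itself was changed in no library, so its part at either site was not tested.

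All 19 libraries were made from Kasumi-1 cells, a cell line established from acute myeloid leukaemia. Of the 7 knockdown groups, all given doxycycline at 100 ng/ml and each with 2 libraries, 5 carried the FBL knockdown (KD): without a vector, with the re-expressed mutants named FBLTri and FBLQua in the titles, with wild-type FBL, and with an empty vector. The other 2 carried a control knockdown, without a vector or with the empty vector. A further 5 libraries, whose labels name no doxycycline, were of the SNORD127 knockout: clone C1, clone C34, clone C1 with empty vector, clone C1 with SNORD127 put back, and a clone whose title calls it a control; each of these is 1 clone or a derivative of it. The other sample names disagree with the titles of the mutants (Dual where the title has FBLTri, Tri where it has FBLQua), and the titles were followed. The same names contain shFBL1 and shFBL2 for the FBL KD libraries without vector and shFBL4 for those with one. The labels do not say what these numbers mark, so the vector and this number cannot be told apart. Without vector the number equals the replicate number, in the control KD names as well, so there it cannot be told from the replicate either. The counts cover rRNA alone, so neither the knockdown of FBL nor the level of SNORD68 could be checked in them, and nothing in the labels says that the 2 libraries of a group were separate cultures.

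Libraries held 5533150 to 18835537 fragment end counts. Score C, the measurement, is 1 minus the count next to a nucleotide divided by the weighted mean of the 6 positions on either side of it; it approaches 1 where nearly every rRNA molecule is methylated and is set to 0 where negative. It is an average over all rRNA of a culture, so fewer methylated molecules per cell and fewer cells with methylated rRNA cannot be told apart. One library was unlike the rest: in control KD with empty vector, replicate 2 had 20.8% of its counts at a single position, against 2.56 to 4.90% in the other 18 libraries, and the comparisons with this group are also given without it. The stretch around 28S-2388 was counted unevenly: its 25 positions (12 on either side) took 14.4% and 15.7% of all counts in the FBL KD libraries without vector and 2.66% and 12.1% in the control KD libraries without vector, against 1.69 to 3.30% in the other 15 libraries. The part of this unevenness in the results was not tested.

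28S-2388 was counted far more deeply than 18S-428, which sets the counting error of each score. The deeper count did not go with a smaller spread between replicates. Pooled over the knockdown groups, the replicate SD was 0.021 at 28S-2388 and 0.016 at 18S-428. The count next to 28S-2388 was 513 to 27771 and the flanking mean 8822 to 62407, so the 95% counting interval of its score had a half-width of 0.00262 to 0.0190. Next to 18S-428 the counts were 6 to 91 and the flanking means 74.8 to 863.8, with half-widths of 0.0192 to 0.104 and a median of 0.0336. These are exact Poisson intervals of the count with the flanking mean held fixed, and they cover counting error only, since no molecular identifiers are stated for the reads.

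In cells with FBL intact both sites were highly methylated. Over the 9 libraries without FBL KD, 18S-428 had a lowest score of 0.915, a median of 0.935 and a highest of 0.980. In the same libraries 28S-2388 had a lowest score of 0.896, a median of 0.920 and a highest of 0.943. In the 8 libraries of FBL KD without wild-type FBL the sites parted: 18S-428 ran from 0.820 to 0.932 with a median of 0.864, whereas 28S-2388 ran from 0 to 0.558 with a median of 0.0689. For 28S-2388 the range of these 8 libraries does not overlap that of the 9 with FBL intact, and for 18S-428 it does. How many of the other listed sites are separated in the same way was not counted, so this says nothing about SNORD68 in particular.

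**Figure D1:**
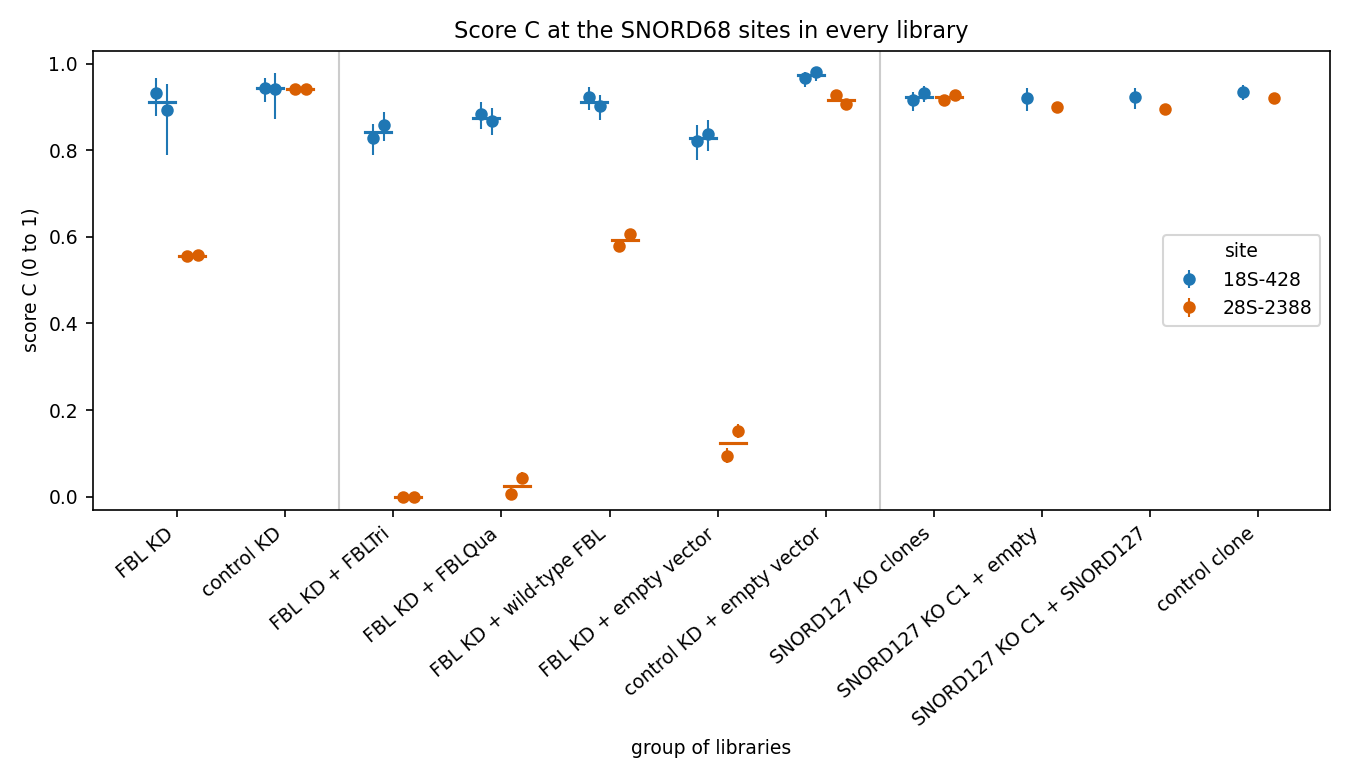
Score C (vertical axis, 0 to 1) at 18S-428 and 28S-2388 in every library, by group; points are libraries, bars 95% counting intervals and short lines means of 2 libraries. 28S-2388 lies between 0 and 0.151 in FBL KD with empty vector, FBLTri or FBLQua and between 0.896 and 0.943 in libraries without FBL KD, while 18S-428 never lies below 0.820.

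Without a vector, 28S-2388 was much lower in FBL KD than in control KD, and 18S-428 differed little. 28S-2388 scored 0.555 and 0.558 in FBL KD libraries, against 0.942 and 0.943 in control KD libraries. The groups lie far apart and their replicates nearly coincide. The difference was -0.386 (SE 0.025), the seventh largest fall among the 120 sites, whose median difference was -0.068.

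18S-428 scored 0.932 and 0.893 in FBL KD libraries, against 0.944 and 0.942 in control KD libraries. The difference of -0.030 (SE 0.015) rested on 11 and 8 counts next to the site in FBL KD, against 17 and 6 in control KD. It turned to 0.068 once library medians were made equal. That step shifts each library by its median score over the 120 sites, so it also removes any change that most sites share. A value after it is a difference relative to the other sites, not the loss itself. The counting intervals, 0.879 to 0.966 and 0.789 to 0.954 in FBL KD, contain both control scores, so a loss at 18S-428 without vector was not detectable at this depth. Leaving out replicate 1 or 2 of FBL KD gave -0.050 and -0.011. Both sites had all FBL KD scores below all control scores, as did 72.5% of the 120 sites (57.4% of those in 18S and 83.1% of those in 28S), so this lack of overlap says nothing about SNORD68 in particular.

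With the empty vector the knockdown was measured in other libraries, and both sites were lower. 28S-2388 scored 0.094 and 0.151 in FBL KD libraries, against 0.928 and 0.907 in control KD libraries. The difference of -0.794 (SE 0.025) was the largest fall of all 120 sites, whose median was -0.084, and was -0.805 without replicate 2 of the control. The count next to the site was 90.6% and 84.9% of the flanking mean in FBL KD, against 7.23% and 9.33% in control KD, so little remained of the dip in end counts that marks a methylated nucleotide.

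18S-428 scored 0.820 and 0.837 in FBL KD libraries with empty vector, against 0.968 and 0.980 in control KD libraries. The difference of -0.145 (SE 0.015) was the sixth largest fall among the 47 sites in 18S, whose median was -0.040; it was -0.139 without replicate 2 of the control, and -0.0077 with library medians made equal. Here 80.0% of the 120 sites (68.1% in 18S and 87.3% in 28S) had all FBL KD scores below all control scores, the SNORD68 sites among them. Counts of 80 and 82 stood next to 18S-428 in FBL KD, against 15 and 8 in control KD, from flanking means of 445.5 and 503.4 and of 465.8 and 405.1.

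On the scale of what is unprotected (1 minus the score) both sites were several times their control with empty vector. With empty vector the mean unprotected share was 6.59 times the control value at 18S-428 and 10.6 times at 28S-2388 (5.32 and 12.1 times without replicate 2 of the control); without vector these ratios were 1.53 at 18S-428 and 7.69 at 28S-2388. Relative to library medians, the 18S-428 difference behind the 6.59 was -0.0077 and the one behind the 1.53 was 0.068. The ratios for 18S-428 rest on the few counts given above for the controls.

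The knockdown difference was more negative with empty vector than without a vector at both sites; with library medians made equal those of 18S-428 were -0.0077 and 0.068. The difference with empty vector minus that without vector was -0.408 (SE 0.035) at 28S-2388, the most negative of the 120 sites, and -0.115 (SE 0.022) at 18S-428 (-0.419 and -0.109 without replicate 2 of the control with empty vector), with a median of -0.029 over all sites. The FBL KD libraries of the 2 backgrounds also differ in the shFBL number.

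**Figure D2:**
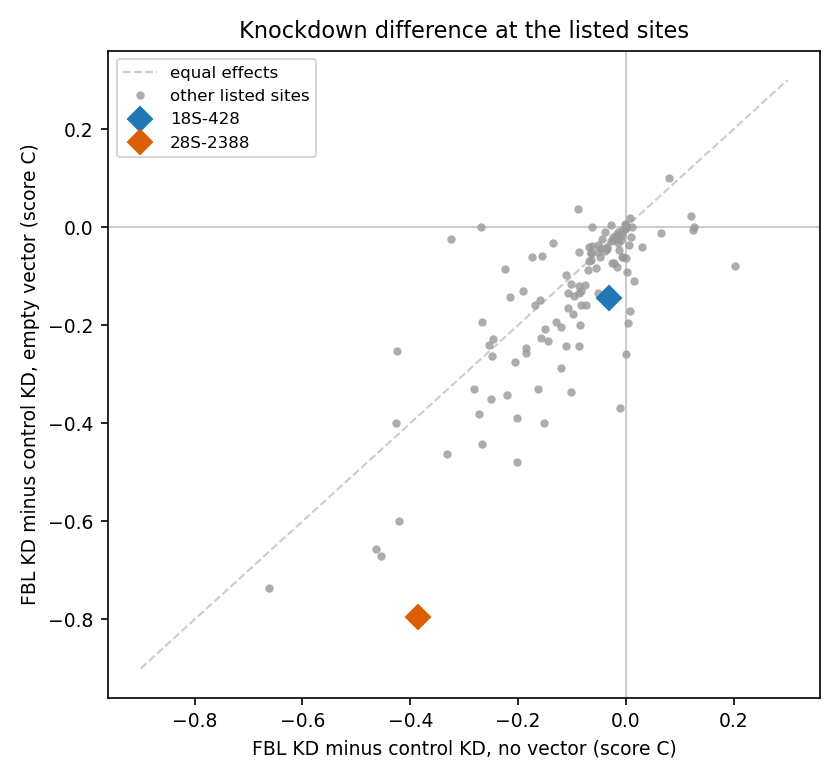
Difference in score C between FBL KD and control KD at each of the 120 listed sites, without vector (horizontal axis) and with empty vector (vertical axis); the dashed line marks equal differences. 28S-2388 lies lowest on the vertical axis, at -0.386 and -0.794, while 18S-428 lies at -0.030 (0.068 with library medians made equal) and -0.145 among the other sites.

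The counts around the sites show how local the differences were. Within the 25 positions centred on 28S-2388, the position just after the site held 3.86% of the counts in FBL KD with empty vector, against 0.376% in control KD, a ratio of 10.3. At the other 24 positions the log2 ratio ran from -0.87 to 0.26, against 3.36 at this position; without replicate 2 of the control it was 3.54 here and -0.24 to 0.09 at the others. Without vector the position held 2.11% in FBL KD, against 0.284% in control KD, a log2 ratio of 2.89, and the other 24 positions ran from -1.08 to 0.11. For 18S-428 the position after the site held 0.783% in FBL KD with empty vector, against 0.120% in control KD, a log2 ratio of 2.70 where the other positions ran from -1.47 to 1.09; without replicate 2 of the control these were 2.40, -0.54 and 0.61. Without vector the log2 ratio at 18S-428 was 0.52, close to the highest of the other positions at 0.41.

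The highest of the other positions around 18S-428 with empty vector lay 9 nucleotides after it, with and without that replicate, which is the position read for 18S-436, the site of SNORD100. 18S-436 lies 8 nucleotides from 18S-428, outside the 6 flanking positions that enter its score. It scored 0.876 ± 0.0069 in FBL KD with empty vector and 0.936 ± 0.017 in control KD (SD, n = 2), or 0.924 in control KD replicate 1 alone. No other listed site lies within 12 nucleotides of 28S-2388; the nearest is 28S-2402, 14 nucleotides away and annotated SNORD143_144, which scored 0 in both FBL KD groups without re-expressed FBL, against 0.657 ± 0.0067 in control KD with empty vector and 0.463 ± 0.0043 in control KD without vector (SD, n = 2).

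**Figure D3:**
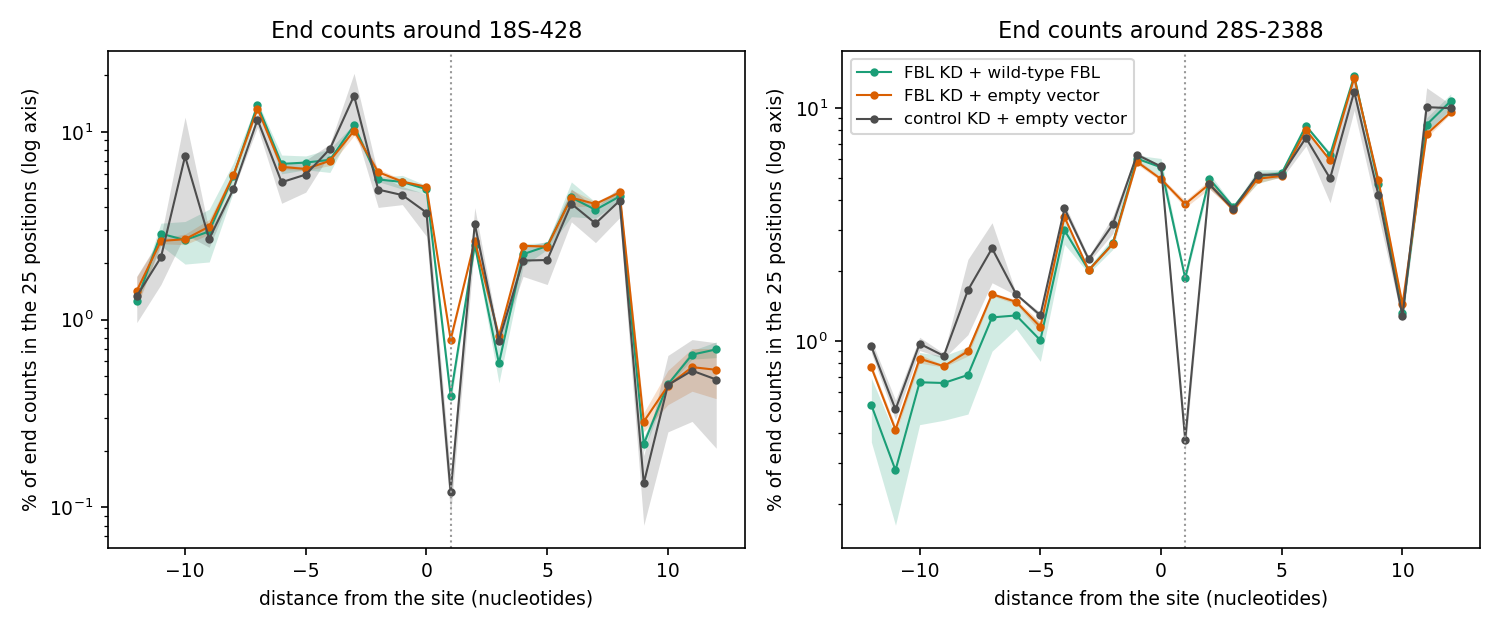
Share of the fragment ends in the 25 positions around each site (vertical log axis, %) by distance from the site in nucleotides; lines are means of 2 libraries, bands their range, and the dotted line is the position read for the score. At that position the share was 3.86% in FBL KD with empty vector, 1.86% with wild-type FBL and 0.376% in control KD at 28S-2388, and at 18S-428 it was 0.783% in FBL KD with empty vector, 0.393% with wild-type FBL and 0.120% in control KD.

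Positions with no listed site show what score an rRNA nucleotide has without a listed methylation. These are positions more than 6 nucleotides from any listed site and with a flanking mean of at least 100, numbering 1223 to 2777 in 28S and 678 to 1302 in 18S per library. Their median score in 28S was 0.134 to 0.155 in 18 libraries, and 0.328 in replicate 2 of control KD with empty vector. In FBL KD with empty vector 53.6% and 49.4% of them scored at least as high as 28S-2388, so the site stood in the middle of unlisted positions. With FBLQua the shares were 59.1% and 56.6%. With FBLTri 28S-2388 scored 0, as did 40.2% and 40.1% of the unlisted positions. In FBL KD without vector they were 21.4% and 20.7%, and in control KD without vector 1.47% and 2.42%.

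18S-428 stayed above nearly all unlisted positions of 18S in every library. The share of these positions that scored at least as high was 4.73% and 4.92% in FBL KD with empty vector, 2.50% and 4.28% in FBL KD without vector, and 0.570% and 0.620% in control KD with empty vector. Unlisted positions may include methylated ones, and their scores depend on how readily each bond breaks, so this background is a description.

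With wild-type FBL, 28S-2388 was far higher than with empty vector and still below control KD. 18S-428 was a little higher, though not relative to library medians. 28S-2388 scored 0.579 and 0.606 with wild-type FBL, against 0.094 and 0.151 with empty vector, a difference of 0.470 (SE 0.025), the largest gain of all 120 sites. 18S-428 scored 0.924 and 0.902 with wild-type FBL, against 0.820 and 0.837 with empty vector, a difference of 0.084 (SE 0.015) that turned to -0.012 with library medians made equal. The groups do not overlap at either site, nor do they in this direction at 75.0% of all sites, whose median gain was 0.053.

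The gain with wild-type FBL over the loss with empty vector was 59.1% at 28S-2388 (57.4 to 60.8% when each of the 6 libraries was left out in turn) and 57.8% at 18S-428 (50.3 to 65.2%). With library medians made equal the loss at 18S-428 was -0.0077, so relative to the other sites there was next to no loss to regain. The same FBL KD libraries with empty vector enter both the loss and the gain. The remaining deficit against control KD with empty vector was -0.325 (SE 0.025) at 28S-2388 and -0.061 (SE 0.015) at 18S-428, and -0.335 and -0.055 without replicate 2 of the control; with library medians made equal it was -0.283 and -0.020. All wild-type FBL scores were below all control scores at both sites, as at 60.0% of all sites.

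With both mutants 28S-2388 lay below empty vector, while 18S-428 lay above it with FBLQua and overlapped it with FBLTri. 28S-2388 scored 0 in both FBLTri libraries, against 0.094 and 0.151 with empty vector. The counts next to it were 104% and 106% of the flanking mean, and without the setting to 0 the scores were -0.035 and -0.062. With FBLQua it scored 0.0049 and 0.043. The differences from empty vector were -0.123 for FBLTri and -0.099 for FBLQua (SE 0.025 each), with no overlap between groups; 39.2% of all sites were likewise lower with FBLTri and 29.2% with FBLQua. Without replicate 1 or 2 of empty vector the FBLQua difference was -0.127 or -0.070, and with flanks of 2 positions it was -0.050.

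18S-428 scored 0.828 and 0.859 with FBLTri, overlapping the 0.820 and 0.837 of empty vector, a difference of 0.014 (SE 0.015) that ran from -0.00089 to 0.030 when each library was left out. With FBLQua it scored 0.883 and 0.868, above both empty-vector libraries, a difference of 0.047 (SE 0.015) and the highest among the 47 sites of 18S, of which 10.6% did not overlap in this direction (27.5% of all 120 sites). At 28S-2388 the share of the loss regained was -15.5% for FBLTri, ranging over -19.8 to -11.5% as single libraries were dropped, and -12.4% for FBLQua (-16.6 to -8.55%). At 18S-428 it was 9.96% for FBLTri (-0.613 to 20.5%) and 32.2% for FBLQua (27.3 to 37.2%). Relative to library medians the loss there was -0.0077. Whether the mutants act differently on the 2 sites was not tested.

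The mutants themselves were compared by a test, limma on score C over the 120 sites with Benjamini-Hochberg adjustment. SNORD68 was not picked for this contrast. The scores of these libraries were known when it was picked, so the p-values at its sites are not independent of that choice. The test called 8.33% of the sites and neither SNORD68 site. At 28S-2388 FBLTri averaged 0 and FBLQua 0.0241 ± 0.0271 (SD, n = 2), a difference of -0.024 (95% interval -0.081 to 0.033, adjusted p = 0.767 by limma). Since the FBLTri scores are held at 0, the difference without that step was larger, -0.073 (adjusted p = 0.258 by limma), and with flanks of 2 positions it was called at -0.099 (adjusted p = 0.0169 by limma). At 18S-428 FBLTri averaged 0.843 ± 0.022 and FBLQua 0.876 ± 0.010 (SD, n = 2), a difference of -0.032 (95% interval -0.067 to 0.0026, adjusted p = 0.279 by limma). Neither interval shows that the mutants act alike.

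The empty vector in control KD cells was tested in the same way and under the same limit, and 8.33% of the sites were called, 9 lower and 1 higher. 18S-428 averaged 0.974 ± 0.0088 with empty vector and 0.943 ± 0.0019 without (SD, n = 2), a difference of 0.031 (95% interval -0.0038 to 0.066, adjusted p = 0.278 by limma). It was called on a logit scale (adjusted p = 0.0162 by limma), where scores near 1 weigh more. 28S-2388 averaged 0.917 ± 0.015 with empty vector and 0.942 ± 0.00066 without (SD, n = 2), a difference of -0.025 (95% interval -0.082 to 0.032, adjusted p = 0.616 by limma). The nominal directions at the 2 sites were opposite, and neither difference passed the test. Without replicate 2 of control KD with empty vector they were 0.025 (adjusted p = 0.613 by limma) at 18S-428 and -0.015 (adjusted p = 0.956 by limma) at 28S-2388.

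Loss of SNORD127, another box C/D snoRNA with its own target in 18S, was not accompanied by a called difference at either SNORD68 site. Without SNORD127 18S-428 scored 0.915 in clone C1, 0.931 in clone C34 and 0.921 in clone C1 with empty vector, against 0.935 in the control clone and 0.923 in clone C1 with SNORD127 put back. The difference was -0.0066 (95% interval -0.037 to 0.024, adjusted p = 1 by limma). 28S-2388 scored 0.917, 0.928 and 0.900 in those 3 libraries without SNORD127, against 0.920 and 0.896 in the 2 with it. The difference was 0.0066 (95% interval -0.042 to 0.055, adjusted p = 1 by limma). The 3 libraries without SNORD127 and the 2 with it overlapped at both sites. The model treats the 5 libraries as independent although 3 of them, on both sides of the comparison, are of clone C1. Its spread comes from the groups with 2 libraries. These are the 7 knockdown groups and, in the SNORD127 set, only clone C1 against clone C34. The intervals and p-values thus measure mostly the spread of other libraries and are no measure of the spread between clones. The test called 1 site, 0.833% of the 120, which was 18S-1447, the site annotated SNORD127, at -0.583 (adjusted p = 0.000369 by limma).

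Over all 11 groups 28S-2388 showed 3 levels. The 6 groups without FBL KD led, from 0.942 in control KD to 0.896 in clone C1 with SNORD127, and among them the SNORD127 knockout clones, the control clone and control KD with empty vector overlapped their neighbours. Wild-type FBL at 0.593 ± 0.019 and FBL KD without vector at 0.556 ± 0.0019 came next, and FBL KD with empty vector at 0.123 ± 0.040, FBLQua at 0.024 ± 0.027 and FBLTri at 0 came last (SD, n = 2). None of these neighbouring groups overlapped, but with 2 libraries each, gaps as small as that between FBLQua and FBLTri are within the spread. How many other listed sites show such levels was not counted, so they say nothing about SNORD68 in particular. Sites of other guides followed the group means of 28S-2388 over a narrower range, 28S-3848 with a Pearson r of 0.998.

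18S-428 showed no such steps. It ran from 0.974 ± 0.0088 in control KD with empty vector through 0.943 ± 0.0019 in control KD and 0.913 ± 0.015 with wild-type FBL to 0.876 ± 0.010 with FBLQua, 0.843 ± 0.022 with FBLTri and 0.829 ± 0.012 in FBL KD with empty vector (SD, n = 2). FBLTri overlapped empty vector, and wild-type FBL overlapped FBL KD without vector, at 0.913 ± 0.028 (SD, n = 2). Wild-type FBL and FBL KD without vector also overlapped the SNORD127 knockout clones, clone C1 with empty vector and clone C1 with SNORD127 put back.

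Within a library, 28S-2388 and 18S-428 had nearly the same score in the libraries without FBL KD and stood apart in those with it. The score of 28S-2388 minus that of 18S-428 was -0.356 ± 0.030 in FBL KD without vector and -0.00054 ± 0.0025 in control KD without vector (SD, n = 2). It was -0.843 ± 0.022 with FBLTri, -0.851 ± 0.037 with FBLQua, -0.320 ± 0.035 with wild-type FBL and -0.706 ± 0.028 in FBL KD with empty vector, against -0.057 ± 0.024 in control KD with empty vector (SD, n = 2), where replicate 1 alone had -0.040. In the 5 SNORD127 libraries it lay between -0.026 and 0.0015.

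Set beside other guides named for 2 sites, SNORD68 had the widest gap. Of 12 such guides or families with a shared pair of sites, the knockdown difference with empty vector at one site minus that at the other was 0.649 for SNORD68 and 0.0446 to 0.191 for the other 11, with a median of 0.116. The next were SNORD50A at 0.191, with -0.670 at 28S-2863 and -0.480 at 28S-2848, and SNORD95 at 0.181, with -0.381 at 28S-2811 and -0.200 at 28S-2802. Without replicate 2 of the control the gap was 0.666 for SNORD68 and 0.0413 to 0.314 for the others, with SNORD45C at 0.314 and SNORD95 at 0.220 the next widest and SNORD50A at 0.153. Without vector the gap was 0.356 for SNORD68 and 0.0169 to 0.251 for the others. Since SNORD68 was chosen with these values known, its place in this order is a description. Of the other 11, 8 have both sites in the same rRNA, 1 to 91 nucleotides apart (SNORD45A and SNORD45C share the site 18S-159), and the 3 with a site in each rRNA, SNORD62A, SNORD32A/SNORD32B and SNORD30, had gaps of 0.121, 0.104 and 0.0946 with all libraries.

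**Figure D4:**
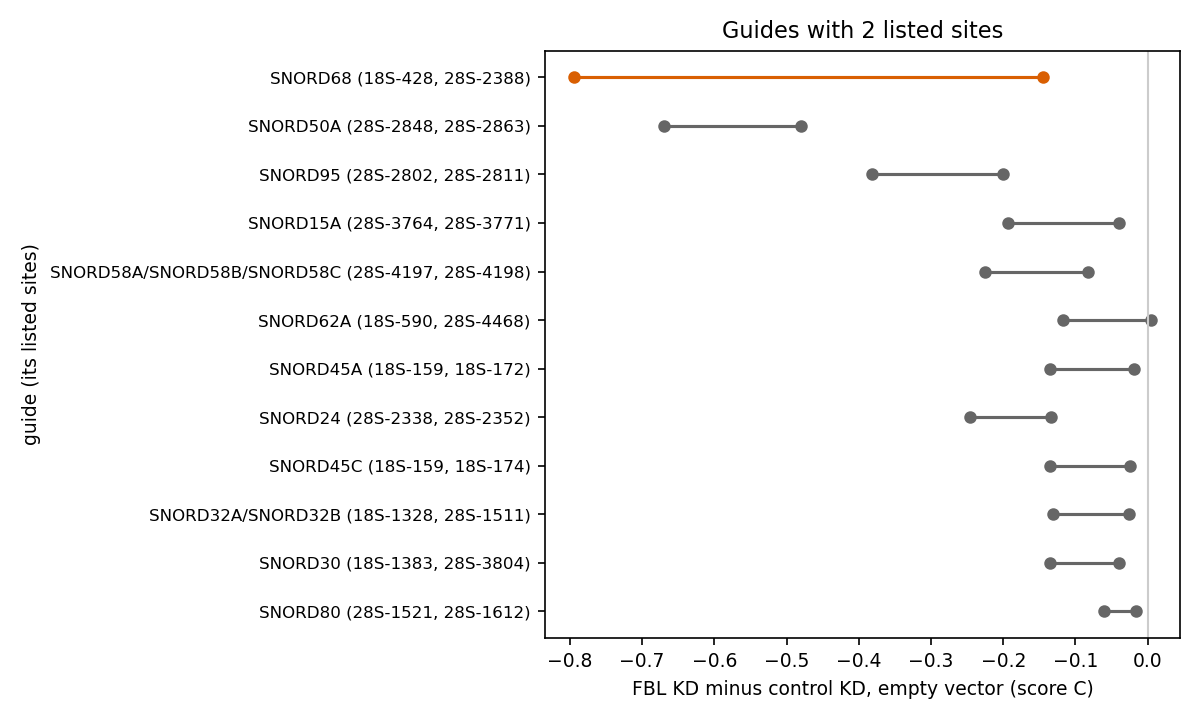
Difference in score C between FBL KD and control KD with empty vector (horizontal axis) at both listed sites of each of the 12 guides or guide families named for 2 sites, ordered by the gap between them. SNORD68 spans -0.794 to -0.145, a gap of 0.649, and the next widest is 0.191; without replicate 2 of the control these gaps are 0.666 and, for another guide, 0.314.

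Sites that started from a like level had smaller falls than 28S-2388. With empty vector 11 other sites had a control KD mean within 0.02 of its own, and their differences ran from -0.400 to 0.0061 with a median of -0.091, against -0.794 at 28S-2388; without replicate 2 of the control there were 11 at -0.449 to -0.018, against -0.805. Without vector 9 other sites did, at -0.324 to 0.030 with a median of -0.152, against -0.386. For 18S-428 there were 63 such sites with empty vector, of which 21 had a larger fall than its -0.145 (21 of 53 without replicate 2 of the control). Without vector there were 9, of which 7 had a larger fall than its -0.030.

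Over the 11 group means the sites most like 28S-2388 in pattern were 28S-3848 (SNORD53), 28S-2802 (SNORD95) and 28S-4464 (SNORD69), with Pearson r of 0.998, 0.995 and 0.993 among the 85 other sites whose group means spanned at least 0.1. They followed it over a narrower range, 0.677 to 0.977 for 28S-3848, 0.717 to 0.983 for 28S-2802 and 0.823 to 0.998 for 28S-4464. Most like 18S-428 were 28S-1858 (SNORD38A and SNORD38B), 28S-4588 (SNORD91A and SNORD91B) and 28S-1747 (SNORD73A), at 0.933, 0.919 and 0.919. The r between the 2 SNORD68 sites was 0.893, which placed 18S-428 in position 45 for 28S-2388 and 28S-2388 in position 14 for 18S-428. These coefficients describe group means that share libraries and depth, and carry no test.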

How the data were processed

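The authors deposited fragment end counts for 7000 rRNA positions (whole numbers, not normalized) and, for 120 sites, score C, a fraction between 0 and 1; columns were matched to samples by their deposited descriptions, and groups came from the titles. Per the labels' protocols, 100 ng of RNA was hydrolysed at 95 °C for 12 min; per the submitters' processing notes cutadapt and Bowtie2 were used, with versions, settings and rRNA reference not given in the sources used here. Recomputing score C from the counts, read 1 position after each site with weights from 1 to 0.5 over 6 flanking positions per side, matched all 2280 deposited values within 1e-09.

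Tests used limma 3.58.1 in R 4.3.3: a coefficient per group, variance trend, two-sided, Benjamini-Hochberg over 120 sites at 0.05, on the 14 knockdown libraries (all 19 for SNORD127). SE values of untested differences come from that fit. The test was tried on simulated data with normal, unbounded scores. Score C is bounded, so that trial does not bear on scores near 0 or 1. P-values reflect only how these libraries spread, possibly for technical reasons. Plots were drawn with matplotlib 3.10.9; other steps used Python 3.11.15 with pandas 2.3.3, scipy 1.17.1 and numpy 2.4.6. SNORD68, the comparisons and the lists were chosen with earlier results of these data known. Named sites were the SNORD68 sites, listed sites within 12 nucleotides, the 3 most alike each, and the guides with 2 sites (the 3 widest gaps; predicted guides left out); 28S-2402, 18S-1447 and further guides were named after their values were seen. Alternatives were fits on the compared groups, no trend, a logit scale, flanks of 2 or 12 positions, no setting to 0, the 10% of sites with lowest flanks left out, equal library medians, a replicate block and leaving out each library; single-flank scores, and counts, ratios and gaps without replicate 2 of control KD with empty vector, were added after seeing the data.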

Additional observations from a re-analysis of the deposited data

How the results depend on the processing

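Of 210 alternative values for 20 differences, 155 kept their call or moved by less than 1 pooled replicate SD (0.016 at 18S-428, 0.021 at 28S-2388). No cause of a shift was tested. Knockdown without vector at 18S-428 was -0.051 with flanks of 2 positions, 0.068 with equal library medians and -0.079 on the downstream flank, and -0.050 to -0.011 with each library left out; at 28S-2388 it was -0.362, -0.287 and -0.297, -0.551 on the upstream flank, and -0.387 to -0.385. With empty vector 18S-428 was -0.180, -0.0077 and -0.250, -0.102 upstream, and -0.154 to -0.137; 28S-2388 was -0.731, -0.657 and -0.671, -0.907 upstream, -0.738 with flanks of 12, and -0.823 to -0.766. Subtracting the no-vector effect from the empty-vector effect, 18S-428 was -0.076 with equal medians, -0.084 upstream, -0.171 downstream, and -0.135 to -0.095; at 28S-2388 it was -0.369 both with flanks of 2 and with equal medians, -0.364 with flanks of 12, -0.356 upstream, -0.373 downstream, and -0.437 to -0.380. Wild-type FBL minus empty vector at 18S-428 was 0.103 with flanks of 2, -0.012 with equal medians, and 0.073 to 0.095; at 28S-2388 0.443, 0.374, 0.437 with flanks of 12, and 0.441 to 0.498. Wild-type FBL minus control was -0.020 at 18S-428 with equal medians, and at 28S-2388 -0.283, -0.288 with flanks of 2 and -0.301 with flanks of 12. At 28S-2388 FBLTri minus empty vector was -0.149 with flanks of 2, -0.176 with flanks of 12, -0.172 with scores not set to 0, and -0.151 to -0.094; FBLQua was -0.050 with flanks of 2 and -0.127 to -0.070. The tested differences were not called except 2: the vector at 18S-428 on a logit scale (0.85, adjusted p from 0.0162 to 0.613 over the alternatives, by limma), and FBLTri minus FBLQua at 28S-2388 with flanks of 2 (-0.099, adjusted p from 0.0169 to 1, by limma). SNORD127 loss at 28S-2388 changed sign among values near 0, from -0.0052 to 0.018 with each library left out, -6.33e-05 without clone C34. An arm left with 1 library is assumed to vary like the other groups.

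With the replicate block no call changed: the vector difference was 0.031 at 18S-428 (adjusted p = 0.302 by limma) and -0.025 at 28S-2388 (0.588), and FBLTri minus FBLQua was -0.032 (0.338) and -0.024 (0.725). The SNORD127 libraries allow no block. Replicates share only a number: deviations correlated above 0.1 in 12 of 21 pairs of groups, from -0.226 to 0.694. Depth limits 18S-428, with 6 to 17 counts at the site in control KD libraries.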

Other observations

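The 2 flanks of 28S-2388 differ in depth, and the score read against one or the other shifts without changing the order of the groups compared: the knockdown difference with empty vector was -0.907 against the upstream flank and -0.671 against the downstream flank, and without vector -0.551 and -0.297. These single-flank scores were chosen after seeing the data.

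The stretch of 25 positions around 28S-2388 took 2.04 times as large a share of the counts in FBL KD as in control KD without vector, where the median ratio over 4753 such stretches of 28S was 0.434 and 45 had a higher ratio; the value rests on which control KD library is used, being 1.24 without replicate 1 and 5.67 without replicate 2. With empty vector the ratio was 1.28, against a median of 1.14 over 4787 stretches, and 615 had a higher one. Around 18S-428 the ratios were 0.530 without vector and 1.18 with empty vector, against medians of 0.465 and 1.18 over 1812 stretches of 18S; the 0.530 was 0.823 without control KD replicate 1 and 0.391 without replicate 2.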
